A study of Mus musculus with 2 samples.

Results

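Among 1592 spinal cord microglia profiled one by one, 356 carried few messages for ribosomal proteins together with the long noncoding RNA Gm35188. They were chosen by a rule on each cell's counts. A member had under 2.5% of its unique molecular identifiers (UMIs, each a captured RNA molecule) on ribosomal protein genes and at least 2 UMIs of Gm35188. The rule found 276 of 1147 kept cells in the control library (24.1%, exact 95% binomial interval 21.6 to 26.6) and 80 of 445 in the 4E-BP1-cKO library (18.0%, 14.5 to 21.9). What was low is the mRNA of ribosomal proteins. Ribosomes and rRNA were not measured.

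4E-BP1, the product of Eif4ebp1, represses cap-dependent translation, and the experiment compared microglia with and without it. Lumbar spinal cords of male mice aged 8 to 10 weeks were dissociated with collagenase IV at body temperature, and CD45lo CD11b+ CX3CR1+ cells were sorted after a Percoll gradient. Control mice were Eif4ebp1 fl/fl (their label reads WT), and 4E-BP1-cKO mice were Eif4ebp1 fl/fl:TMEM119CreERT2, in which the promoter of the microglial gene Tmem119 drives the tamoxifen-inducible recombinase. Both groups therefore carried the floxed allele, and 4-OHT was given from postnatal day 4 to day 9. Each genotype was 1 droplet library (10x 3′ chemistry), and how many mice went into each is unknown. Library, genotype and animal cannot be told apart, so no test or p-value is given. All intervals are exact 95% binomial or Poisson intervals and cover counting error only. The matrices held 1216 control and 474 4E-BP1-cKO barcodes, 0 of them in both, with totals of 4914298 and 1769927 UMIs. Members held 794848 and 228023 UMIs, in that order, and the library order is control then 4E-BP1-cKO throughout.

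Microglia are the resident macrophages of the brain and spinal cord. They are known by P2ry12, the ADP receptor that steers their processes, Cx3cr1, the receptor for neuronal fractalkine, and Csf1r, the receptor on which their survival depends. Mertk is the receptor tyrosine kinase with which they engulf apoptotic cells. Messages for ribosomal proteins are short, abundant and mostly cytoplasmic. Many long noncoding RNAs (lncRNAs), with Malat1 as the best known, stay in the nucleus.

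The members carried the defining genes of microglia. At least 3 of 12 microglial identity genes had a UMI in 271 of 276 control members and in 78 of 80 4E-BP1-cKO members. The part of free RNA in these UMIs was not measured. Counts per 1000000 UMIs (CPM) summed over those 12 genes were 7779 and 7679 in members, against 12113 and 11536 in all other kept cells. Genes of other cell types were scarce. Only 1 member, in the control library, had UMIs of 3 or more oligodendrocyte markers, against 15 and 1 of the other cells. None of the members reached 3 markers of any of the other 12 lists, which covered 11 cell types and proliferating cells. Summed border macrophage markers stood at 5.03 and 0 CPM in members against 24.4 and 9.96 CPM in other cells, and all 8 of them were at 0 in 4E-BP1-cKO members. Neutrophil markers summed to 572 and 544 CPM in members against 371 and 323 CPM elsewhere, nearly all of it from Csf3r, the receptor for granulocyte colony-stimulating factor, which microglia also express. Astrocyte markers summed to 159 and 96.5 CPM against 102 and 81.0 CPM, most of it Slc1a3, the glutamate transporter. The part of these 2 lists in the results was not tested.

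Members were shallower than cells above the ribosomal limit but no shallower than the rest below it. Their median depth was 2592.5 and 2175.5 UMIs per cell. The other cells under 2.5%, called ribosome-poor cells without Gm35188 here (341 and 114 cells, with 0 or 1 UMI of it), had 2208 and 1714 UMIs. The 530 and 251 cells at or above 2.5%, called ribosome-rich, had 5479.5 and 4716 UMIs. The median ribosomal protein share, which the rule used, was 1.17% and 0.914% in members, 1.35% and 1.13% in ribosome-poor cells without Gm35188, and 5.73% and 6.52% in ribosome-rich cells. Median mitochondrial shares were 0.925% and 0.684% in members, 0.973% and 1.09% in ribosome-poor cells without Gm35188, and 0.855% and 0.677% in ribosome-rich cells. The share of lncRNAs other than Gm35188 was 10.7% and 10.4% of a member's UMIs, 10.4% and 10.97% in ribosome-poor cells without Gm35188, and 5.60% and 5.58% in ribosome-rich cells. Malat1 alone took 5.31% and 5.63% in members and 2.74% and 3.16% in ribosome-rich cells. Cells thinned to 872 UMIs showed similar numbers of detected genes, with medians of 616 and 614 in members, 608 and 603.5 in ribosome-poor cells without Gm35188, and 620 and 607 in ribosome-rich cells. Thinning left out 2 and 8 members, 10 and 28 ribosome-poor cells without Gm35188, and 77 and 34 ribosome-rich cells as too shallow. The 2.5% limit fixed the low ribosomal protein share of both classes below it. Cells there also shared a high lncRNA share, whether or not they were members.

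**Figure D1:**
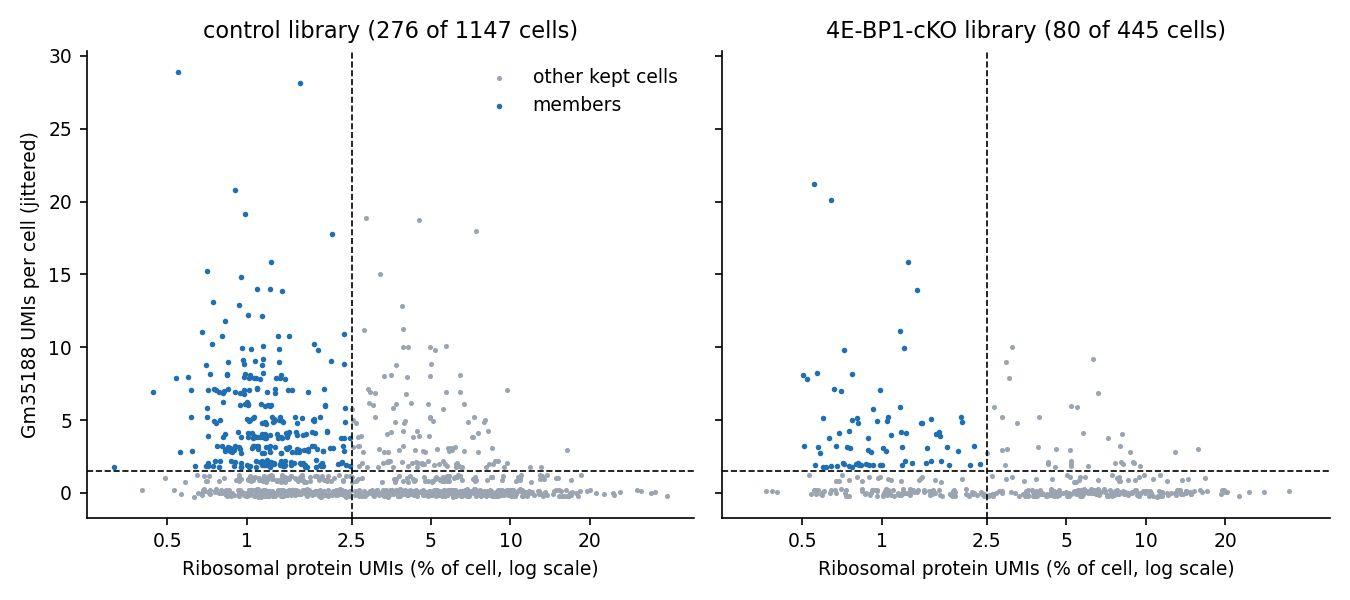
Each point is a kept cell, with its ribosomal protein share of UMIs (percent, x axis) against its UMIs of Gm35188 (y axis), in the control and 4E-BP1-cKO libraries. Members lie left of the 2.5% line at 2 UMIs or more, and cells on both sides of that line carried Gm35188.

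Gm35188, the RNA that defines these cells, has a polyadenylation signal near the end of its first-listed transcript. The gene lies on the minus strand of chromosome 12 at chr12:52543108-52628265 (GRCm39, GENCODE vM39, where the gene is annotated as lncRNA). Droplet 3′ chemistry primes on poly(A), so the ends of the annotated transcripts are shown for the 3 noncoding markers. The last 60 bases of each, read 5′ to 3′ on the transcript strand, carry in capitals any AATAAA or ATTAAA, the common polyadenylation signals.
Gm35188: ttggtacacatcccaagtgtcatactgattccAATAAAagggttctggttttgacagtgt
Gm43221: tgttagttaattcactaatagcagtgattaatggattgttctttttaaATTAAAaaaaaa
B430010I23Rik: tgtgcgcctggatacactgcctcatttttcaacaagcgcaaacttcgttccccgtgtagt
The signal begins 28 bases from the end of the 602-base transcript of Gm35188 and 12 bases from the end of the 2071-base transcript of Gm43221. None of these letters stands in the window of the 2349-base transcript of B430010I23Rik. Either motif was present in the last 50 bases of 55.6% of the first-listed transcripts of 32172 lncRNA genes and 68.5% of those of 20896 protein-coding genes, AATAAA alone in 42.4% and 55.3%. These matches describe the annotation and locate no read.

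Single members held from 2 to 29 UMIs of Gm35188 in the control library (median 4) and from 2 to 21 in the 4E-BP1-cKO library (median 3). Pooled over members this was 1823 and 1605 CPM, against 102 and 84.4 CPM in ribosome-poor cells without Gm35188, a difference fixed by the rule. Many members sat near the count limit: 64 and 27 had exactly 2 UMIs, whereas 21 and 5 had over 10. Among the cells just outside, 87 and 19 ribosome-poor cells had 1 UMI and 254 and 95 had 0. Few sat near the ribosomal limit. Members at 2.0 to 2.5% numbered 20 and 4, and cells with 2 or more UMIs of Gm35188 at 2.5 to 3.0% numbered 17 and 7. Thinned to 872 UMIs, 50.4% and 54.2% of the members, which were chosen for having 2 or more, still had 2 UMIs of Gm35188. No cell type known to lack Gm35188 was sampled in number, so a free-RNA background for it was not measured. Along the ribosomal share, control cells at 0.5 to 1% held 995 CPM, those at 2.5 to 3% held 448 CPM and those at 12 to 20% held 48.5 CPM. The 4E-BP1-cKO cells held 1005, 295 and 50.6 CPM in the same bins. The bins did not fall evenly. The 4 control cells under 0.5% held 465 CPM and the 3 4E-BP1-cKO cells there 0 CPM, and 4E-BP1-cKO cells at 3 to 3.5% held 631 CPM. Gm35188 was not absent above the limit, where 124 of 530 cells (23.4%) and 39 of 251 (15.5%) had 2 or more UMIs. Of the cells under the limit, 44.7% (40.8 to 48.8) and 41.2% (34.2 to 48.5) were members.

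The other 4 marker genes named for these cells were higher in members than in all other kept cells, and 3 of them by over 2-fold in both libraries. They had been named with earlier results of these data known, so this is a description. Gm43221, an lncRNA at chr3:108907340-108913661 (plus strand) inside the oppositely transcribed gene Fam102b, stood at 507 and 553 CPM in members and 112 and 61.1 CPM in other cells. The ratio was 4.54 (3.96 to 5.20) and 9.05 (6.86 to 11.97). Usp50, a gene of the ubiquitin-specific protease family at chr2:126551016-126625403 (minus strand) that overlaps Usp8 on the opposite strand, stood at 283 and 219 CPM against 68.4 and 46.5 CPM, ratios of 4.14 (3.46 to 4.96) and 4.72 (3.22 to 6.88). B430010I23Rik, an lncRNA at chr8:41470505-41477253 (plus strand) inside the oppositely transcribed Mtus1, stood at 214 and 237 CPM against 76.6 and 51.1 CPM. Mertk, at chr2:128540729-128645080 (plus strand), stood at 1586 and 1224 CPM against 1003 and 821 CPM, ratios of 1.58 (1.48 to 1.69) and 1.49 (1.30 to 1.70). All 4 were higher in members in both libraries, and Mertk by the least.

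Set against ribosome-poor cells without Gm35188 the same 4 genes stood closer. Gm43221 was 294 and 209 CPM in those cells, giving ratios of 1.73 (1.47 to 2.03) and 2.65 (1.88 to 3.78). B430010I23Rik was 130 and 124 CPM there, ratios of 1.65 (1.29 to 2.11) and 1.90 (1.18 to 3.12). Usp50 was 145 and 155 CPM there, and the interval of its ratio reached 1 in the 4E-BP1-cKO library (1.41, 0.898 to 2.24). Mertk was 1269 and 1297 CPM there, so that its ratio was 1.25 (1.15 to 1.36) in control and 0.943 (0.798 to 1.12) in 4E-BP1-cKO cells. Mertk therefore had no common direction between members and the cells most like them. One 4E-BP1-cKO member, the deepest with 35216 UMIs, gave 15.4% of that group's UMIs, and without it the log2 ratio of Mertk there was 0.08 in place of −0.08. At equal depth of 872 UMIs, 32.8% and 37.5% of members had a UMI of Gm43221, against 17.8% and 11.6% of ribosome-poor cells without Gm35188 and 5.96% and 3.23% of ribosome-rich cells. Without thinning, 53.3% of control members (147 cells) and 41 of 80 4E-BP1-cKO members had one.

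**Figure D2:**
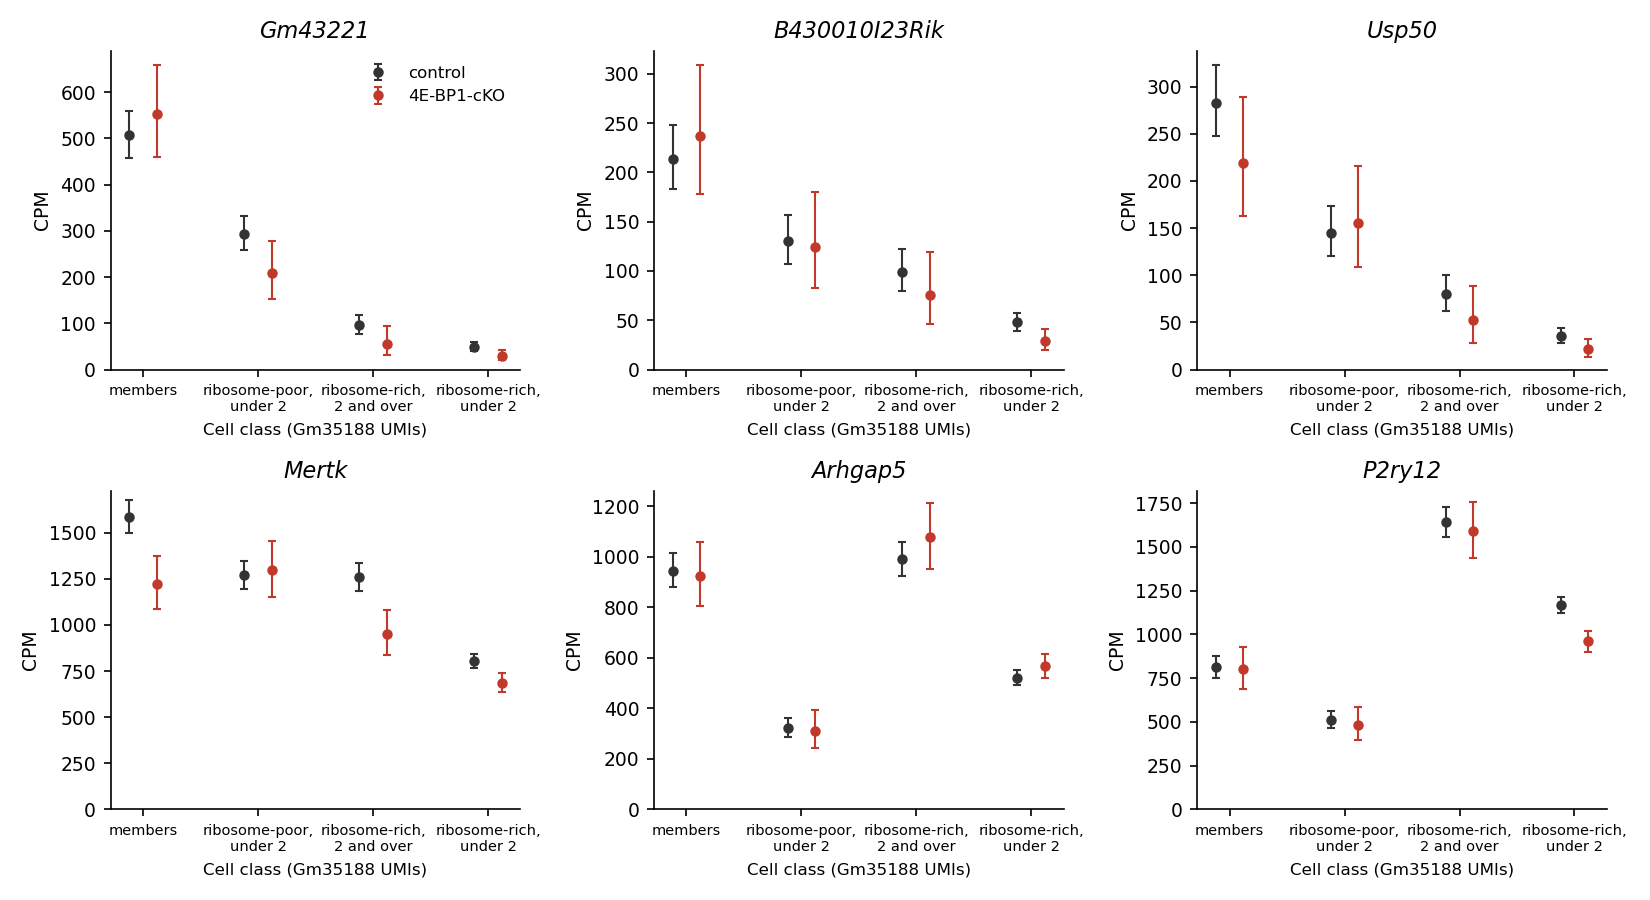
CPM of the markers and of Arhgap5 (y axis, with 95% Poisson intervals for counting error) in 4 classes of cells per library, split at 2.5% ribosomal protein share and at 2 UMIs of Gm35188. Gm43221, at 507 and 553 CPM in members, was lowest in the ribosome-rich cells, whereas Arhgap5 was higher on the Gm35188 side on both sides of the ribosomal limit.

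Arhgap5, chosen after its values were seen because Gm35188 encloses it on the opposite strand (chr12:52549920-52618760, plus strand), followed Gm35188 in both libraries. It encodes p190-B, a GTPase-activating protein. Members held 946 and 925 CPM of it, ribosome-poor cells without Gm35188 held 323 and 311 CPM, and all other cells held 582 and 613 CPM. The ratio to ribosome-poor cells without Gm35188 was 2.93 (2.55 to 3.37) and 2.98 (2.26 to 3.96), the same within counting error in the 2 libraries. Among ribosome-poor cells its level was ordered by Gm35188 count: 286, 440, 671, 862 and 1366 CPM in control cells with 0, 1, 2 to 3, 4 to 6 and 7 or more UMIs of Gm35188. The 4E-BP1-cKO cells held 262, 588, 668, 799 and 1697 CPM in the same steps. These steps are a description, since they use the count that chose the members. The order also held in the ribosome-rich cells that the rule left out, where cells with 2 or more UMIs of Gm35188 had 990 and 1077 CPM of Arhgap5 and the rest had 522 and 567 CPM. Gm35188 and Arhgap5 occupy the same stretch of DNA, and the strand setting used in counting is not stated, so reads of one counted for the other cannot be told apart from joint expression. The same limit holds for Gm43221, B430010I23Rik and Usp50 with the genes they overlap.

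Across all genes, members differed from all other kept cells by more lncRNA and less short housekeeping mRNA. Of 4803 genes with at least 200 UMIs, 91 were over 2-fold higher in members in both libraries (1.89%) and 330 were over 2-fold lower (6.87%), with 1 CPM added before the ratio. The 200 UMIs were counted over all kept cells, members included. Under TMM scaling, a normalisation that centres most genes, the split was 55 higher and 425 lower. The median log2 ratio of all tested genes was 0.11 and 0.10 as counted and −0.04 and −0.07 under TMM, so values near 0 have no firm direction. Counting intervals lay beyond 1 in both libraries for 89 of the 91 and 299 of the 330. Most of both sets also separated ribosome-poor from ribosome-rich cells without regard to Gm35188, since 64 of the 91 were over 2-fold higher, and 249 of the 330 over 2-fold lower, in ribosome-poor cells without Gm35188 than in ribosome-rich cells. The rule used the ribosomal share, and a gene that goes with it had to differ.

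Of 183 tested lncRNAs, 49 were over 2-fold higher and 8 lower (26.8% and 4.37%), against 39 higher and 322 lower of 4599 protein-coding genes (0.848% and 7.002%). The minimum UMI count for testing included the UMIs of members, so a gene high in members reached it more easily. This can raise the share of higher genes. Its effect on these shares, and on the comparison of the 49 with the other lncRNAs below, was not tested. 5330438D12Rik stood at 598 and 658 CPM in members and 168 and 132 CPM in other cells. Gm16337 stood at 985 and 724 CPM against 287 and 155 CPM. Gm50035 stood at 367 and 276 CPM against 88.1 and 61.1 CPM, and Gm12353 at 138 and 180 CPM against 32.7 and 29.9 CPM. Each was more than 3-fold higher in both libraries, as were Gm21057 and Usp50. Gm12353 had 327 UMIs over all kept cells, of which 110 and 41 were in members. It reached the minimum for testing only with the UMIs of members. So did Gm7480 (200 UMIs in all, 52 and 21 of them in members), Gm28379, Plxna4os3 and Gm28501, all among the 49. The rest of the 49 were not examined for this. These lncRNAs shared a position that the rule had not used. Of the 49 higher lncRNAs, 46 overlapped another measured gene on the opposite strand (93.9%), against 69 of the other 134 (51.5%). The 45 different partner genes were themselves higher in members in both libraries in 39 cases, but 0 of them by over 2-fold, with median log2 ratios of 0.50 and 0.73 beside 1.49 and 1.68 for the lncRNAs. Those 39 were 86.7% of the partners, against 45.1% of all tested genes. The partners were long, with a median span of 150894 bases, and 79.9% of the 957 genes in the longest of 5 equal span bins were also higher in both libraries.

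Gene span went with the ratio throughout. In 5 equal bins of annotated span, the median log2 ratio of members to other cells was −0.62, −0.17, 0.10, 0.30 and 0.46 in control cells from the shortest to the longest genes. In 4E-BP1-cKO cells it was −0.70, −0.20, 0.11, 0.35 and 0.60. The shortest bin (median span 8060 bases) held 243 of the genes over 2-fold lower and the longest (median 163164 bases) held 0. Against ribosome-poor cells without Gm35188 the same medians ran only from −0.05 and −0.12 to 0.12 and 0.17. The low depth, high Malat1 share and low ribosomal protein share of these cells moved with this pattern, and their part in it was not tested.

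**Figure D3:**
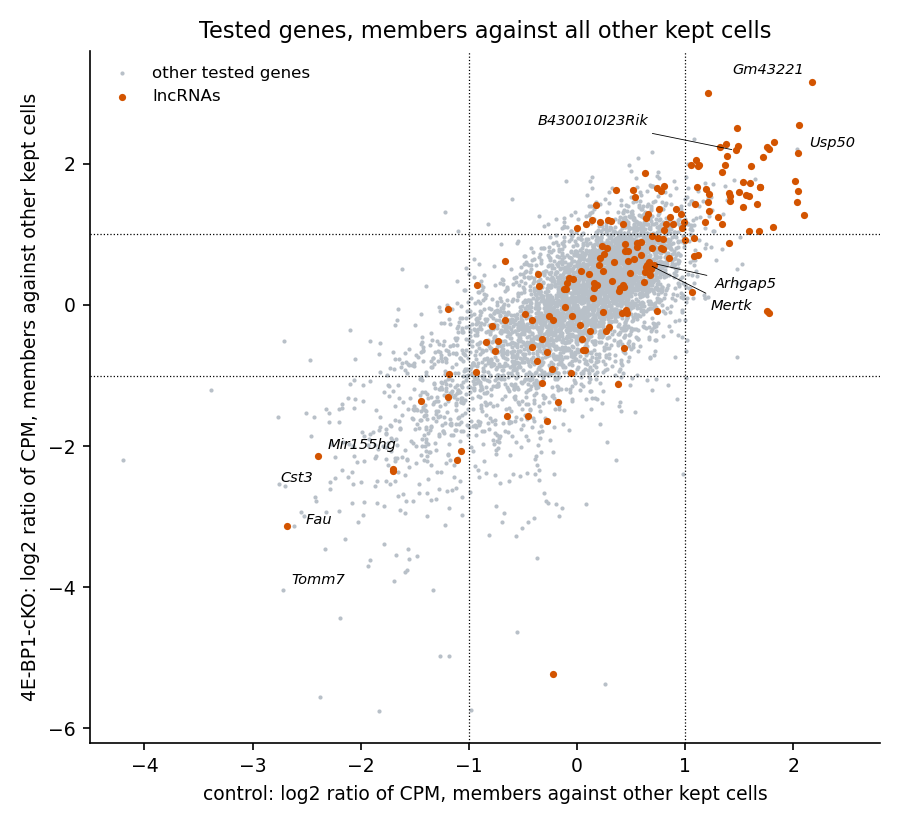
Each point is 1 of 4803 tested genes, with its log2 ratio of CPM in members to that in all other kept cells, control on the x axis and 4E-BP1-cKO on the y axis, and lncRNAs in orange. Dotted lines mark 2-fold, and lncRNAs make up 49 of the 91 genes past it on the higher side in both libraries.

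Genes far below the other cells included Fau, Tomm7, Tmem256 and Chmp5. Fau, whose product is cleaved into a ubiquitin-like protein and the ribosomal protein S30, stood at 297 and 263 CPM in members against 1832 and 2310 CPM in other cells. Its name kept it out of the ribosomal share that chose the members. Tomm7, a small subunit of the mitochondrial import pore, stood at 12.6 and 4.39 CPM against 88.3 and 87.6 CPM. The 4.39 CPM was 1 UMI, under the 3-count floor of 13.2 CPM in 4E-BP1-cKO members. Tmem256 stood at 6.29 and 0 CPM against 36.9 and 45.8 CPM, at least 3.48-fold lower in the 4E-BP1-cKO library taking 3 counts as the floor. Chmp5, a component of the ESCRT-III membrane-cutting machinery, stood at 10.1 and 0 CPM against 38.4 and 53.1 CPM, at least 4.04-fold lower in the 4E-BP1-cKO library. Of 31 nuclear-encoded subunits of oxidative phosphorylation, 23 were over 2-fold lower and 0 higher, beside 6.87% of all genes lower, with median log2 ratios of −1.59 and −1.88. One of them, Cox4i1 of cytochrome c oxidase, stood at 66.7 and 43.9 CPM against 216 and 252 CPM. Of 20 abundant short cytoplasmic messages, 17 were lower, with medians of −1.71 and −1.99. Cst3, the secreted protease inhibitor cystatin C, was among them at 3910 and 3978 CPM against 18450 and 21678 CPM, and Tmsb4x, the actin-binding thymosin, at 1015 and 873 CPM against 4945 and 4957 CPM. By contrast 0 of 13 genes of the mitochondrial genome passed 2-fold, with medians of 0.04 and −0.22, the first below 0 under TMM. Of 22 translation factors, 7 were lower and 0 higher, among them Eef1a1, which brings aminoacyl-tRNA to the ribosome, at 518 and 504 CPM against 1761 and 2027 CPM. Against ribosome-poor cells without Gm35188 the nuclear-encoded oxidative phosphorylation list had medians of 0.04 and 0.38, with 1 gene higher and 0 lower. In that comparison the translation factors had medians of −0.17 and −0.17 and the short cytoplasmic messages 0.03 and 0.06. Both lists had 0 genes past 2-fold there.

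Among the microglial genes the order depended on the class of gene. Of the 12 identity genes 0 passed 2-fold, with medians of −0.63 and −0.42. Cx3cr1 stood at 1183 and 1070 CPM in members against 2252 and 2118 CPM in other cells. Csf1r stood nearer, at 1249 and 1351 CPM against 1493 and 1371 CPM. Of 9 genes of complement and TREM2 signalling, 5 were over 2-fold lower and 0 higher, beside 6.87% of all genes lower. Set against ribosome-poor cells without Gm35188, 0 of the 9 passed 2-fold, with medians of −0.10 and 0.03. C1qa, which encodes a chain of the complement recognition protein C1q, stood at 1047 and 1408 CPM against 2982 and 3199 CPM, and Tyrobp, the signalling adaptor of TREM2, at 243 and 268 CPM against 918 and 951 CPM. The cathepsins and lysosomal genes had 2 of 12 lower, among them Ctss, the lysosomal protease cathepsin S, at 1140 and 1210 CPM against 3793 and 3936 CPM. Beside ribosome-poor cells without Gm35188, 0 of these 12 passed 2-fold, with medians of −0.10 and −0.15. Of 12 microglial transcription factors, 0 passed 2-fold in either direction against all other kept cells. Their medians in that comparison were above 0 (0.28 and 0.38). Mef2a stood at 3193 and 3048 CPM against 2125 and 1832 CPM, and Mef2c at 2270 and 2245 CPM against 1497 and 1476 CPM. Receptors of the TAM family and their ligands had 0 of 4 tested genes past 2-fold. Mertk was above, at the values given, and its relative Axl was at 32.7 and 39.5 CPM in members against 44.4 and 55.8 CPM.

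The lists of activation and digestion genes had medians below 0 in members, heat shock in control cells excepted. Of 20 immediate early genes, which tissue digestion at body temperature is known to induce, 1 was over 2-fold lower and 0 higher, with medians of −0.45 and −0.55. This count stood near the 6.87% of all genes that were lower, and against ribosome-poor cells without Gm35188 the medians were −0.10 and −0.06. The gene past 2-fold was Fos, a subunit of the AP-1 transcription factor, at 911 and 1070 CPM in members against 2439 and 2914 CPM. Egr1 stood at 1087 and 1539 CPM against 2116 and 3234 CPM. Of 18 chemokine, cytokine and NF-kappaB feedback genes, 6 were lower and 0 higher. The chemokine Ccl4 stood at 1607 and 2202 CPM against 3375 and 5499 CPM, and Nfkbia, the NF-kappaB inhibitor, at 611 and 785 CPM against 1439 and 2359 CPM. Of 9 genes associated with disease-associated microglia (DAM), 3 were lower, among them the lipid carrier Apoe at 348 and 496 CPM against 989 and 1681 CPM. The 13 heat shock genes had 1 lower, with medians of 0.01 and −0.50, and the sign of the control median changed with the scaling. The 9 DAM genes had 0 past 2-fold against ribosome-poor cells without Gm35188, with medians of −0.34 and −0.31.

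The remaining lists lay on both sides of the median of all genes. The 7 tested genes of the 4E-BPs and the mTORC1 kinase complex, which phosphorylates them, had medians of 0.44 and 0.52 and 0 past 2-fold. Rptor, the subunit that recruits mTORC1 substrates, stood at 355 and 386 CPM against 238 and 193 CPM. The 13 ubiquitin-specific proteases had 1 higher (1.89% of all genes were), Usp50, which was chosen as a marker, and medians of 0.44 and 0.58. Usp24 stood at 206 and 237 CPM against 115 and 111 CPM. Chromatin regulators (25 genes, medians 0.28 and 0.29) and RNA surveillance genes (8 genes, 0.35 and 0.30) had 0 past 2-fold. Splicing factors (29 genes, −0.02 and 0.01) had 0 past it, and the sign of their median changed with the scaling. The 7 nuclear lncRNAs fixed as a list had 0 past 2-fold and medians of 0.21 and 0.57, the first at −0.01 when every cell was weighted equally. Mir99ahg stood at 1939 and 2088 CPM against 1112 and 999 CPM. Apoptosis and p53 genes had 2 of 13 lower and 0 higher, with medians of −0.25 and −0.28, where 6.87% of all genes were lower. Only 2 interferon-stimulated genes had enough UMIs, with medians of −0.98 and 0.03.

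**Figure D4:**
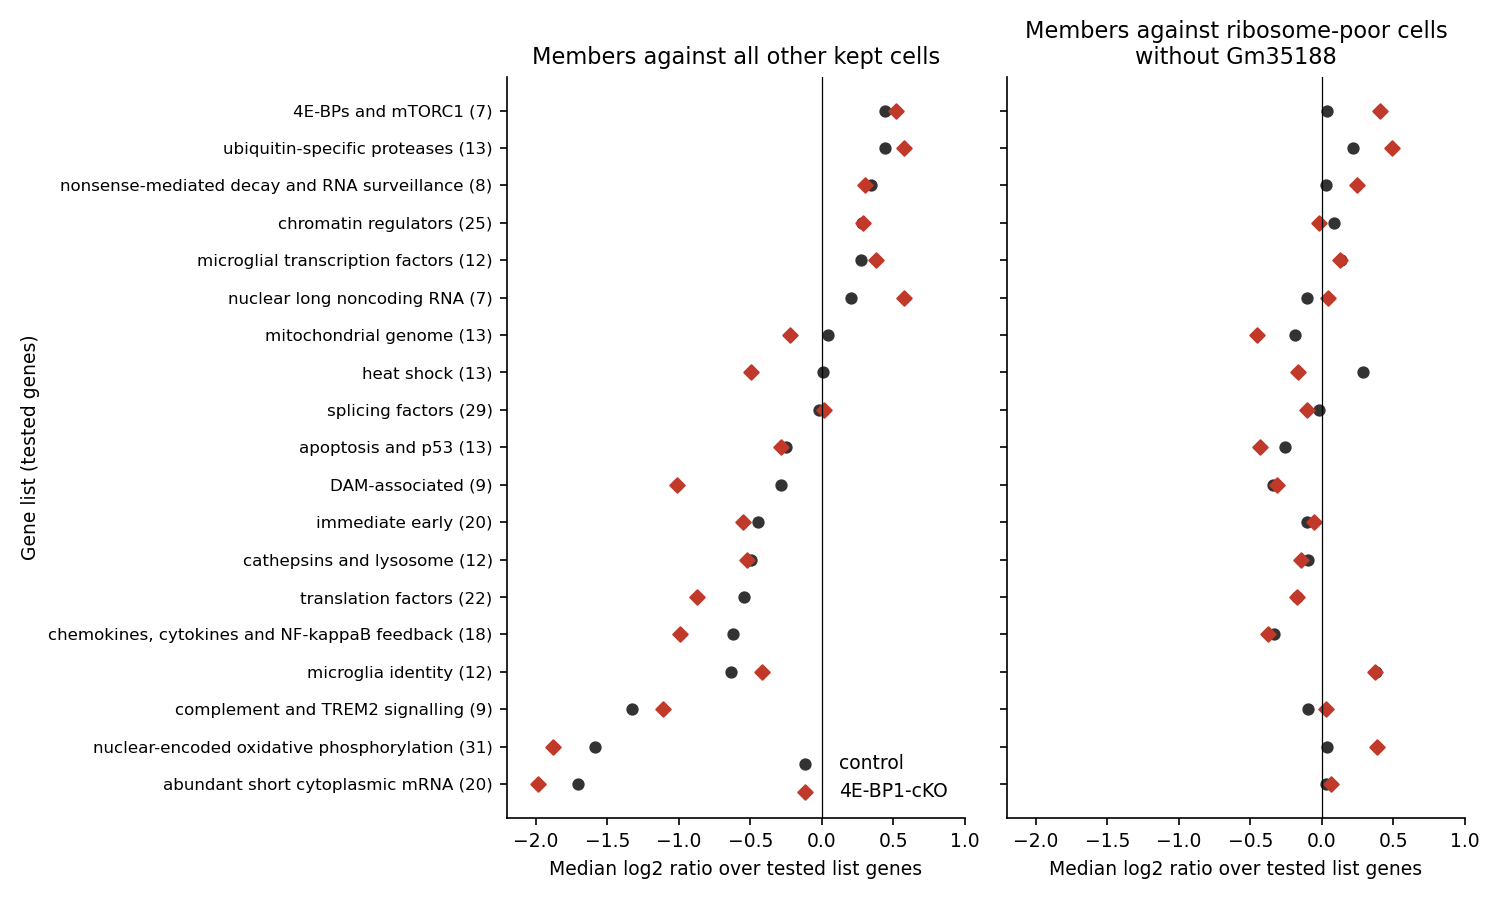
Median log2 ratio of CPM for each gene list (x axis) with members set against all other kept cells and against ribosome-poor cells without Gm35188, per library. Oxidative phosphorylation and short cytoplasmic messages lie far below 0 in the first comparison, at −1.59 and −1.71 in control cells. In the second they lie at 0.04 and 0.03 in control cells and at 0.38 and 0.06 in 4E-BP1-cKO cells.

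Against ribosome-poor cells without Gm35188, the cells most like them, members showed few differences. Only 27 genes were over 2-fold higher in both libraries (0.562%) and 53 lower (1.1%), and under TMM the split was 18 and 64. The median of all genes was 0.05 and 0.03. Counting intervals lay beyond 1 for 11 and 44 of them. No lncRNA of the 183 was over 2-fold higher, and 4 were lower. The rule selected cells with a UMI count of 2 or more, and members were somewhat deeper, by medians of 2592.5 and 2175.5 UMIs against 2208 and 1714. With cells thinned to equal depth, 57 genes were higher and 96 lower, and these held only 7 of the 27 and 33 of the 53. Arhgap5 was the most counted of the higher genes, at the values given, and 23 of the 27 had under 500 UMIs over all kept cells. Scamp5, a membrane protein of secretory carriers, stood at 74.2 and 70.2 CPM in members against 26.9 and 8.88 CPM. Like Gm12353, Scamp5 reached the minimum for testing only with the UMIs of members, so its place among the higher genes is no support. The 8.88 CPM came from 2 UMIs, under the 3-count floor of 13.3 CPM, and 1 cell gave 5 of the 16 UMIs in 4E-BP1-cKO members. Zfp90, a zinc finger protein, stood at 81.8 and 74.6 CPM against 36.3 and 17.8 CPM, although with cells thinned to equal depth its 4E-BP1-cKO log2 ratio was −0.32. Mapk3, which encodes the kinase ERK1, stood at 18.9 and 35.1 CPM against 8.19 and 0 CPM. These values came from only 15 and 8 UMIs against 7 and 0 UMIs. With 3 counts put in place of the 0, the 4E-BP1-cKO ratio was 2.63. Of 31 oxidative phosphorylation subunits 1 was higher here, Uqcr10.

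The lower genes included Mir155hg, Alcam, Morn1 and Il10. Mir155hg, the host transcript of the microRNA miR-155 that is induced in activated macrophages, stood at 18.9 and 39.5 CPM in members against 122 and 244 CPM in ribosome-poor cells without Gm35188, ratios of 0.155 (0.0838 to 0.268) and 0.162 (0.0702 to 0.330). Alcam, an adhesion molecule of the immunoglobulin family, stood at 104 and 52.6 CPM against 288 and 742 CPM. A single control member gave 39 of that group's 83 Alcam UMIs. Morn1 stood at 40.3 and 17.5 CPM against 126 and 129 CPM. The anti-inflammatory cytokine Il10, named after its values were seen, stood at 54.1 and 74.6 CPM against 214 and 244 CPM, from 43 and 17 UMIs in members. The ratio was 0.253 (0.177 to 0.354) and 0.305 (0.166 to 0.534). Of the 18 chemokine, cytokine and NF-kappaB genes 3 were lower here and 0 higher, beside 1.1% of all genes lower, with medians of −0.34 and −0.38, whereas Ccl4 was at 1607 and 2202 CPM against 1570 and 1932 CPM. The 25 listed chromatin regulators had medians of 0.09 and −0.02, with 0 higher and 0 lower. Of them, and named after their values were seen, the histone demethylase gene Kdm6b was at 321 and 368 CPM against 691 and 635 CPM, and Chd4, the helicase of the NuRD complex, at 286 and 224 CPM against 564 and 395 CPM. Neither was past 2-fold in both libraries. On the other side the 12 identity genes had medians of 0.38 and 0.37 with 0 past 2-fold. P2ry12 was 512 and 484 CPM in ribosome-poor cells without Gm35188 against 811 and 803 CPM in members (1.59, 1.40 to 1.80, and 1.66, 1.30 to 2.12). Mef2c was 1568 and 1537 CPM there, ratios of 1.45 (1.35 to 1.56) and 1.46 (1.27 to 1.68). Both genes were higher in members in both libraries with an interval that left out 1.

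The levels of P2ry12, Mir155hg, Il10 and Mertk by the count of Gm35188 are a description, since the steps use the count that chose the members and the genes were named with their difference known. In control ribosome-poor cells with 0, 1, 2 to 3, 4 to 6 and 7 or more UMIs of Gm35188 (254, 87, 115, 83 and 78 cells), P2ry12 was at 477, 621, 655, 862 and 964 CPM. In the same steps Mir155hg was at 142, 58.7, 43.7, 4.54 and 0 CPM, and Il10 at 217, 205, 109, 27.2 and 7.87 CPM. Both were lowest in the cells with most Gm35188, where P2ry12 was highest. In 4E-BP1-cKO cells (95, 19, 42, 24 and 14 cells) P2ry12 was at 440, 735, 723, 941 and 683 CPM, Mir155hg at 277, 58.8, 76.7, 21.9 and 0 CPM, and Il10 at 277, 58.8, 131, 32.8 and 44.1 CPM. Mertk was at 1178, 1559, 1448, 1529 and 1811 CPM over the control steps and at 1214, 1765, 1599, 1051 and 815 CPM in 4E-BP1-cKO cells, where it ended below its start. A cell with more UMIs has more chance of a high Gm35188 count, and members with over 10 had a median of 3288 and 2347 UMIs.

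**Figure D5:**
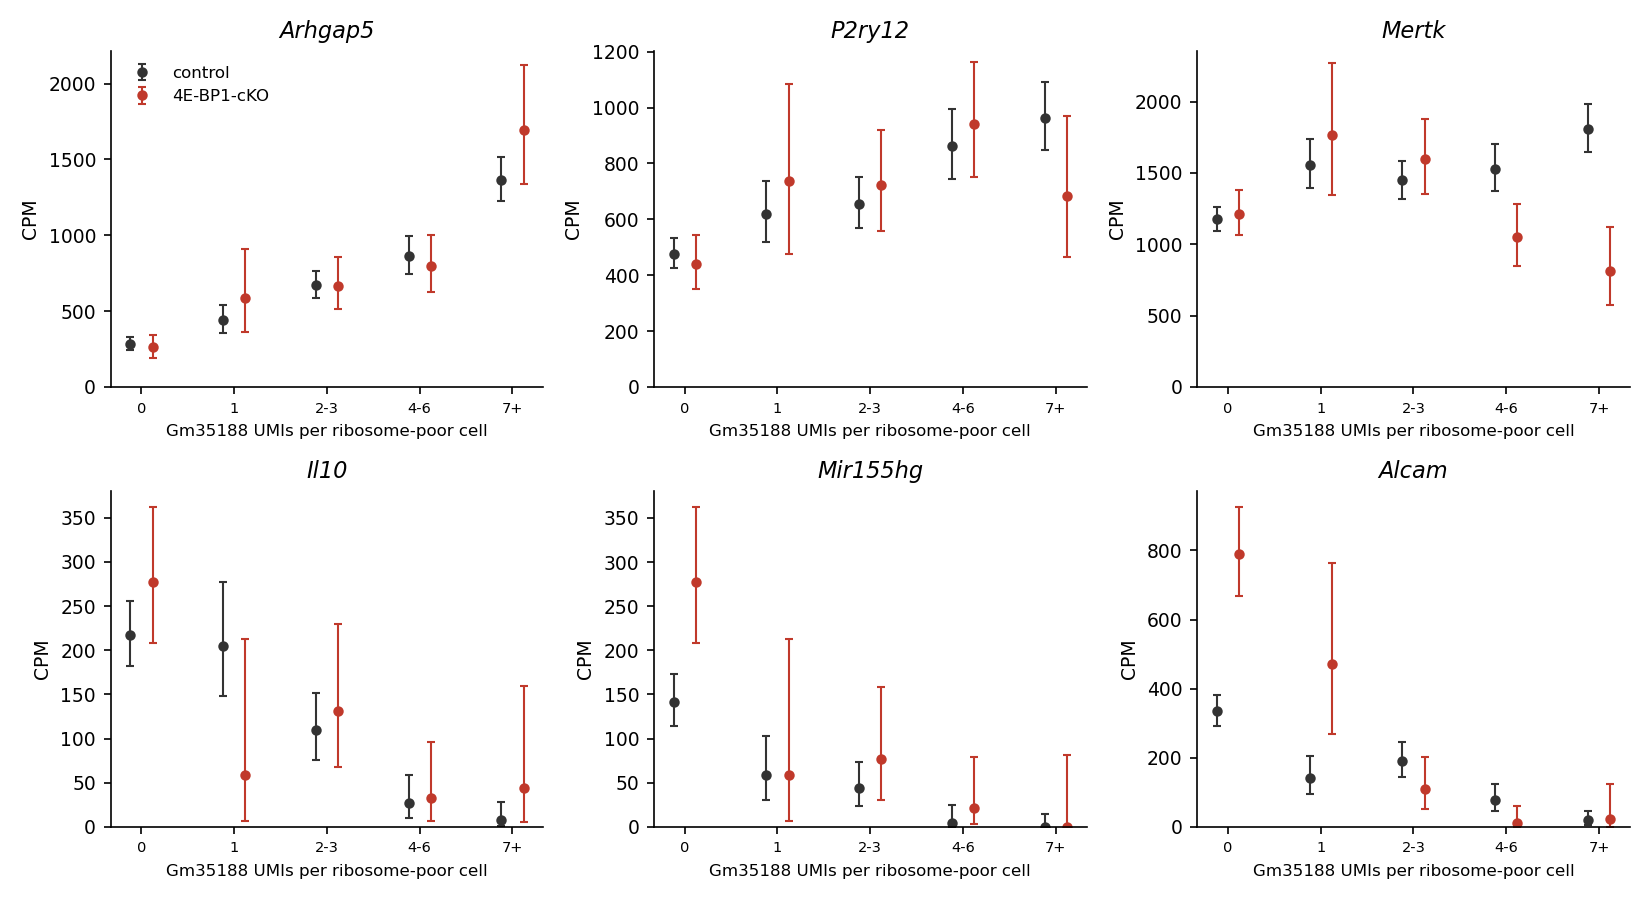
CPM with 95% Poisson intervals (y axis) of selected genes in ribosome-poor cells grouped by their UMIs of Gm35188 (x axis), control and 4E-BP1-cKO. Arhgap5 goes from 286 to 1366 CPM in control cells and Mir155hg from 142 to 0 CPM.

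The ribosome-rich cells, which the rule left out, gave a second view of the same genes in other cells. They were split at 2 UMIs of Gm35188 into 124 and 39 cells with it and 406 and 212 without. Of the 53 genes lower in members than in ribosome-poor cells without Gm35188, 47 were lower with Gm35188 in both libraries here as well (88.7%), against 26.6% of all tested genes, and 18 of them by over 2-fold (34.0%, against 1.62%). Of the 27 higher genes 15 were higher in both (55.6%, against 43.8% of all tested genes), and 0 by over 2-fold, so the higher set stood near the share of all genes. P2ry12 was at 1643 and 1590 CPM with Gm35188 and 1167 and 961 CPM without. Mertk was at 1259 and 953 CPM with it and 804 and 685 CPM without. Mef2c was at 1985 and 2215 CPM with it and 1282 and 1284 CPM without. Mir155hg was at 15.9 and 68.1 CPM with it and 131 and 188 CPM without, and Il10 at 26.2 and 24.03 CPM with it and 63.7 and 74.6 CPM without. Kdm6b was at 264 and 260 CPM with it and 526 and 528 CPM without. Alcam did not keep 1 direction, at 35.3 against 214 CPM in control and 212 against 149 CPM in 4E-BP1-cKO cells. The 12 identity genes summed to 16111 and 15266 CPM with Gm35188 and 12734 and 11842 CPM without, and the 19 listed chemokine, cytokine and NF-kappaB genes to 9142 and 11554 CPM with it and 14024 and 20174 CPM without. These groups still differed in what the rule used: cells with Gm35188 had a median ribosomal share of 4.58% and 5.19% against 6.14% and 6.68%, and were deeper (6516.5 and 5724 UMIs against 4986 and 4413). The part of either in these values was not tested.

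Between the libraries, members took a smaller share of the 4E-BP1-cKO cells (18.0%, against 24.1%), with intervals that overlapped slightly. The share of all ribosome-poor cells was 53.8% (50.9 to 56.7) in control and 43.6% (38.9 to 48.3) in 4E-BP1-cKO cells, whereas the share of members among them, 44.7% and 41.2%, differed by less than its counting error. Per UMI, members of the 4E-BP1-cKO library had 0.880 (0.783 to 0.988) of the control level of Gm35188, 1.09 (0.885 to 1.33) of Gm43221, 0.978 of Arhgap5 and 0.771 (0.675 to 0.879) of Mertk. Without the deepest 4E-BP1-cKO member, which held 5 UMIs of Gm35188, these were 1.03 (0.913 to 1.15), 1.29 (1.05 to 1.58), 1.04 and 0.866 (0.756 to 0.990), so the direction for Gm35188, which the rule selected on, rests on that cell. Eif4ebp1 itself was counted 7 times in members of each library, 8.81 and 30.7 CPM, a ratio of 3.49 (1.04 to 11.6). Ribosome-poor cells without Gm35188 held 15 and 1 UMIs of it, and ribosome-rich cells 73 and 43. In ribosome-rich cells it stood at 19.4 and 32.0 CPM with 2 or more UMIs of Gm35188 and at 24.6 and 33.9 CPM with fewer. Outside the ribosome-poor cells without Gm35188 it was thus not lower in the 4E-BP1-cKO library. Where its reads lie relative to the deleted stretch was not examined, so these few UMIs give no check of the genotype. The study itself reported reduced 4E-BP1 protein in spinal microglia of 4E-BP1-cKO mice by immunostaining, and protein was not measured here.

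Of the 4803 genes, 122 were over 2-fold higher (2.54%) and 289 lower (6.02%) in 4E-BP1-cKO members than in control members, with intervals beyond 1 for 83 and 148. In all other kept cells, with more UMIs behind each value, 8 and 30 genes passed 2-fold. With 80 4E-BP1-cKO members, 200 UMIs of a gene over all kept cells left few in that group. Prkd1, which encodes protein kinase D1, had 0 UMIs in every control class and 60 UMIs in 30 of the 80 4E-BP1-cKO members (263 CPM, at least 69.7-fold above the 3-count floor of control members). The same held outside the members, with 161 CPM in the other 4E-BP1-cKO cells and 0 in the other control cells, so it was not particular to them. Pbdc1 was at 23.9 and 114 CPM in control and 4E-BP1-cKO members. Egr3, an immediate early transcription factor, was at 81.8 and 281 CPM, but 27 of its 64 UMIs in 4E-BP1-cKO members came from 1 cell, and for Bin3 (25.2 and 105 CPM) 17 of 24 did. On the lower side, Zfyve9, the SMAD anchor of TGF-beta signalling, had 45 UMIs in control and 1 in 4E-BP1-cKO members (56.6 and 4.39 CPM). Nupr1, a stress-induced nuclear protein, had 47 and 2 UMIs, and Tg, which encodes thyroglobulin, 75 and 4. The heat shock list had 6 of 13 genes lower with a median of −0.92, against 2 of 13 and −0.32 in all other cells. Its chaperone Hspa1b was at 1458 CPM in control and 583 CPM in 4E-BP1-cKO members, and at 1451 and 559 CPM in the other cells of the same libraries. The medians of the identity genes (0.01), complement and TREM2 genes (0.14), transcription factors (0.10) and oxidative phosphorylation (0.06) lay close to the −0.02 of all genes. Of the 31 oxidative phosphorylation genes, 4 were over 2-fold lower and 1 higher, beside 6.02% and 2.54% of all genes. In the other cells 0 of them passed 2-fold. The immediate early and chemokine lists had medians of 0.24 and 0.29 in members and 0.35 and 0.42 in the other cells. Handling of the single library of each genotype cannot be told apart from the genotype.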

How the data were processed

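Sorted spinal microglia were captured with 10x 3′ v3.1 chemistry, and the deposited count matrices, made by the authors with Cell Ranger 8.0.1 on mm10, hold whole UMI counts of 32285 genes per barcode, not normalised. No source names the annotation release. The filters kept 1147 and 445 barcodes (over 300 genes, mitochondrial share under 5%). The study also removed doublets with a tool not run here and kept fewer cells. Scrublet marked 2 control cells (0.174%), 8 4E-BP1-cKO cells (1.80%) and 0 members. Members and gene lists were chosen with earlier results of these data known.

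UMIs were summed over cells of each class and divided by the class total (CPM). Ribosomal protein genes (85 symbols), Gm35188 and 40 repeated symbols were not tested. A gene was called when its log2 ratio, with 1 CPM added, passed 2-fold the same way in both libraries. Named were the markers, the genes furthest past that limit in each comparison, and abundant list members. Arhgap5, Il10, Axl, Kdm6b and Chd4 were named after their values were seen. Genes were placed by Ensembl ID on GRCm39 (GENCODE vM39), for orientation only, and 99.6% of tested genes matched. Intervals were exact (scipy 1.17.1). Python 3.11.15, numpy 2.4.6, pandas 2.3.3, scanpy 1.11.5 and edgeR 4.0.16 (TMM factors only) were used, and ratios and intervals were tested on simulated counts.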

Additional observations from a re-analysis of the deposited data

Results flagged for a closer look

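A few genes went opposite ways in the 2 libraries, with counting intervals on opposite sides of 1. There were 30 of them against all other kept cells and 34 against ribosome-poor cells without Gm35188, of 4803 tested. The difference between libraries was not tested. Among the named genes, the log2 ratio of members to other cells was −0.41 in control and 0.75 in 4E-BP1-cKO cells for Egr3, −0.55 and 0.90 for Cdc27, and 0.98 and −2.39 for Zfyve9. Against ribosome-poor cells without Gm35188, Zfyve9 had 0.93 and −3.55, Malat1 0.053 and −0.148, and Gm42418 −0.104 and 0.172. The 4E-BP1-cKO value of Zfyve9 sets 1 UMI in members against 14 in ribosome-poor cells without Gm35188, 9 of them from 1 cell. The deepest 4E-BP1-cKO member gave 530 of that group's 1409 UMIs of Gm42418. Without it, an alternative chosen after seeing the data, the 4E-BP1-cKO values were −0.27 for Gm42418 and 0.01 for Malat1, so neither stood opposite to control, and the ratio of Egr3 to all other cells was 0.21.

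Barcodes that failed the filters on genes or mitochondrial share also met the rule on ribosomal share and Gm35188: 3 of 69 in the control library (4.35%, exact interval 0.906 to 12.2) and 4 of 29 in the 4E-BP1-cKO library (13.8%, 3.89 to 31.7).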

How the results depend on the processing

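No paired analysis was possible because each genotype has 1 library. With 1 UMI of Gm35188 as the minimum, members were 31.6% and 22.2% of kept cells and 46 genes were over 2-fold higher than in the remaining ribosome-poor cells. With 3 UMIs they were 18.5% and 11.9%, with 15 such genes, and a ribosomal limit of 3.0% gave 16. Of the 27 genes called at first, 14, 9 and 10 were among them. Cells thinned to equal depth gave shares of 13.2% and 10.7%, 57 higher and 96 lower genes against ribosome-poor cells without Gm35188, and 401 higher and 769 lower between libraries. Thinning changed which genes were called: 40 of 91 higher and 199 of 330 lower genes against all other cells stayed, and 7 of 27 and 33 of 53 against ribosome-poor cells without Gm35188. TMM factors left 55 genes higher than in all other cells. Adding 10 CPM left 6 higher against ribosome-poor cells without Gm35188, and 47 higher and 159 lower between libraries. Averaging the cells' own shares gave 52 higher and 251 lower against all other cells and 186 higher and 429 lower between libraries, with 45 of the 91 and 71 of the 122 higher genes shared. Against ribosome-poor cells without Gm35188 it gave 27 higher, 11 of them shared. A minimum of 500 UMIs per gene left 43 higher and 158 lower against all other cells, 4 and 24 against ribosome-poor cells without Gm35188, and 25 and 54 between libraries. A minimum of 1 UMI gave 508 and 1016, 489 and 550, and 1845 and 5557. Leaving out the deepest 4E-BP1-cKO member, an alternative chosen after seeing the data, gave 89 and 315, 33 and 59, and 140 and 317. Of 2132 recomputed log2 ratios of 41 named genes, 1913 stayed within their counting interval. The sign changed in 47, of which 44 were against ribosome-poor cells without Gm35188. The other 3, against all other cells, were Il10 in control (0.07 with a minimum of 1 UMI of Gm35188), Zfp90 in 4E-BP1-cKO cells (−0.38 thinned) and Cdc27 in 4E-BP1-cKO cells (−0.09 with cells weighted equally). One ratio past 2-fold changed direction, that of Zfp90 against ribosome-poor cells without Gm35188 in the 4E-BP1-cKO library, at −0.32 with cells thinned. Of 266 recomputed list medians, 63 moved by more than the difference between libraries, and the largest shift was 0.75. The sign changed in 12, from the heat shock, mitochondrial genome, nuclear lncRNA and splicing factor lists. With 80 4E-BP1-cKO members, 3 counts amount to 13.2 CPM there, against 3.77 CPM in control members.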

Other observations

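Genes with few exons were lower in members than in all other kept cells, and genes with many were higher. In 5 bins from a median of 3 to a median of 26 exons, the median log2 ratio was −0.26, −0.16, 0.08, 0.19 and 0.37 in control cells and −0.34, −0.24, 0.08, 0.27 and 0.43 in 4E-BP1-cKO cells. The bin with the fewest exons nevertheless held 40 of the genes over 2-fold higher, beside 172 lower. By transcript length, the shortest bin (median 2161 bases) held 48 of the higher and 211 of the lower genes, and the longest (median 8643 bases) held 15 and 5. Short transcripts were thus found on both sides.

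Between the libraries, the 13 genes of the mitochondrial genome had a median log2 ratio of −0.48 in members of the 4E-BP1-cKO over the control library and −0.17 in the other cells, with 0 past 2-fold in either. The 7 nuclear lncRNAs had medians of 0.23 and −0.15, and the 7 genes of the 4E-BPs and mTORC1 0.15 and −0.15. These differences between members and other cells were not tested.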
